A study of Mus musculus with 11 samples.

Results

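The genes described here are 48 genes of DNA replication and mitosis: cyclins and their kinases, proteins that license and fire replication origins, enzymes that copy DNA and supply its building blocks, mitotic kinases, spindle and kinetochore proteins, and the transcription factors that switch many of these genes on. They were chosen by symbol from 52143 genes in the deposited table. All 48 symbols were found, in 49 rows, because Kif11 has 2 rows with identical values and was counted once. By textbook role, 29 act mainly at the G1/S transition or in S phase and 19 in G2 or mitosis.

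Expression was measured in RAW cells, a transformed mouse macrophage-like line that divides continuously in culture. The study compared cells labelled shC (control hairpin RNA) with cells labelled shGIV, in which a hairpin depletes GIV (Girdin, encoded by Ccdc88a), a modulator of trimeric G proteins. Each type was taken without lipopolysaccharide (LPS, the bacterial cell wall component sensed by Toll-like receptor 4) or exposed for 5 h to LPS at 100 ng/ml. The study's title names its question as the role of Girdin in macrophage polarization by LPS. The hairpin sequences, the number of clones and whether the set numbers mark separate cultures are not given in the sources used here, so the p-values measure the spread between these libraries, which may be technical.

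The values are TPM, transcript abundances relative to all RNA of a library, which are scaled to gene length, so levels can be compared between genes. The libraries used numbered 9: control cells without LPS replicates 1 and 3, control cells with LPS replicate 2, and 3 replicates each of GIV-depleted cells without and with LPS. Control cells with LPS are thus a lone library, and its spread is taken to be that of the other groups. The library labelled control without LPS replicate 2 was left out: protein-coding genes made up 7.80% of its TPM, while the 9 others ranged from 73.9% to 81.5%, and mitochondrial genes 0.263% against 3.61% to 8.32%. The counts of members called in each comparison, and of listed genes called after LPS, are also given with that library added. Ccdc88a, the depleted gene, stood at 10.0 and 7.69 TPM in control cells without LPS and at 6.93, 5.31 and 5.58 TPM in depleted cells without LPS. With LPS it stood at 5.77 TPM in control cells and at 3.08, 2.62 and 3.39 TPM in depleted cells. These ranges do not overlap, but neither difference passed the test (log2 -0.50 ± 0.15, adjusted p = 0.232 without LPS, and -0.75 ± 0.19, adjusted p = 0.0681 with LPS). Depleted libraries lay below control ones without overlap for 12.7% of all genes tested without LPS and 48.7% with LPS. The 6 macrophage markers examined (Cd68, Lyz2, Csf1r, Spi1, Itgam and Adgre1) were present in all 9 libraries, between 37.2 TPM (lowest value of Itgam) and 15913 TPM (highest value of Lyz2). The markers of other cell types reported here (Cd3e and Cd3g of T cells, Cd79a of B cells, Ncr1 of NK cells, Col1a1 and Col1a2 of stromal cells, Epcam of epithelium and Pecam1 of endothelium) did not exceed 1.05 TPM in any of the 9 libraries, and Ncr1 was at 0 in all of them.

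A dividing cell builds its replication machinery in a fixed order. ORC, CDC6 and CDT1 load the MCM helicase ring onto origins in G1, CDC45 and the GINS complex then complete the active helicase, and polymerases held by the PCNA clamp copy the DNA. Cyclins E and A with CDK2 drive S phase, and cyclins A and B with CDK1 drive mitosis. E2F factors activate many of the S-phase genes, while FOXM1 and MYBL2 (B-MYB) with the MuvB complex activate the mitotic ones, and in resting cells the DREAM complex represses both kinds. E2F proteins bind short TTTCCCGC-like octamers. MuvB-containing complexes bind the cell cycle genes homology region (CHR), a TTTGAA-like element, which often lies downstream of CCAAT boxes bound by NF-Y. Activated macrophages commonly leave the cell cycle, and bacterial products are known to slow macrophage proliferation.

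Because the members moved together (below), their promoters were searched for these elements. The windows came from RefSeq (GRCm38.p6) and ran from 250 bases before to 50 bases after each start; 38 of the 48 members had one. Mcm4, Tpx2, Foxm1, Aurkb, Kif20a, Gins1, Ccna2, Gins2, Ccne2 and Pole had no entry. The words searched, on both strands, were TTTGGCGC, TTTCCCGC, TTTCGCGC and TTTGCCGC for E2F, TTTGAA and TTCGAA for the CHR, and CCAAT for NF-Y. Neighbouring E2F words on opposite strands can overlap, as they do in Mcm5 and Mcm6. The following are the 200 bases before the start, 5′ to 3′ on the gene's strand, with matches in capitals. They are shown because they belong to the most abundant members of each phase group with 1 window and a match in this stretch: an E2F word for Mcm5, Mcm6 and Cdk2 (S phase), and a CHR word for Cdk1, Top2a and Ccnb2 (mitosis). Members with 2 windows, such as Mcm7 and Uhrf1, were not considered for this display.
Mcm5, chr8:75109309-75109508, plus strand: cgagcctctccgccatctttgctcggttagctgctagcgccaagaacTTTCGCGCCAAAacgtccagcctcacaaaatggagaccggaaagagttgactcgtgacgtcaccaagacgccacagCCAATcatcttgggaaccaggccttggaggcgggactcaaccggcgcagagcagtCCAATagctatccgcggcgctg
Mcm6, chr1:128359706-128359905, minus strand: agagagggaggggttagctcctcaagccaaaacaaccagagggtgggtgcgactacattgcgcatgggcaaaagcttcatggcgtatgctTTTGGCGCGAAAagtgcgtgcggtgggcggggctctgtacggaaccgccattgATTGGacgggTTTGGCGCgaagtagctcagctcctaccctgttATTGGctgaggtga
Cdk2, chr10:128705052-128705251, minus strand: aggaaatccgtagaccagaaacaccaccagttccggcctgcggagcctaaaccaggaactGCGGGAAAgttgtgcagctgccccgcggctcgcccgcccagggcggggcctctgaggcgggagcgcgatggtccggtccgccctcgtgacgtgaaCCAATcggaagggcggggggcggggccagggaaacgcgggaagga
Cdk1, chr10:69352913-69353112, minus strand: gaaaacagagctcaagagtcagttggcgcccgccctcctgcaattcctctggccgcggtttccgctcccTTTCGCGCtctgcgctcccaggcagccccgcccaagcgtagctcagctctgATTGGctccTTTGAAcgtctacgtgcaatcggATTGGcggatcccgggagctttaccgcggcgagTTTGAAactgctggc
Top2a, chr11:99024190-99024389, minus strand: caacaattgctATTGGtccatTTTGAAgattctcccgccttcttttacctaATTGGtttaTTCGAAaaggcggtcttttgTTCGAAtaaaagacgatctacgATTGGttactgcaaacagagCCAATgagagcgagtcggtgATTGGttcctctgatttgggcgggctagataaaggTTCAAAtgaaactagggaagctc
Ccnb2, chr9:70421555-70421754, minus strand: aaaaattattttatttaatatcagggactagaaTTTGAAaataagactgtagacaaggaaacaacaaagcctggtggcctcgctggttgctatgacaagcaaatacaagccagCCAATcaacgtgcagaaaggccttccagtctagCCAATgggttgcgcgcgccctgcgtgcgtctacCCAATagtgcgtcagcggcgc

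Mcm5 carried overlapping words TTTCGCGC and GCGCCAAA at 153 and 149 bases before its start, and CCAAT boxes at 77 and 22 bases. Mcm6 held 3 E2F words, of which the nearest began 47 bases before the start. Cdk2 held 1 E2F word at 140 bases, on the opposite strand, so that it reads GCGGGAAA here. Cdk1, the kinase of mitotic cyclins, held all 3 kinds of word: an E2F octamer at 131 bases, CCAAT boxes at 80 and 48 bases, and CHR words at 71 and 15 bases. Top2a, which untangles replicated chromosomes, held 4 CHR words and 5 CCAAT boxes. Ccnb2 (cyclin B2) held 3 CCAAT boxes, at 87, 54 and 21 bases, and a CHR word further out at 167 bases.

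Across the whole windows, an E2F word was found in 11 of 24 G1/S members (45.8%) and in 1 of 14 G2/M members (7.14%, Cdk1). The share over all 27025 genes with a window was 2.6%, and 4.96% over the 9099 of them that were tested for expression. CHR words were distributed the other way: 11 of 14 G2/M members (78.6%) and 5 of 24 G1/S members (20.8%) held one, against 21.7% of all genes. CCAAT was present in 13 of 14 G2/M members and 17 of 24 G1/S members, against 41.1% of all genes. All 16 members with a CHR word also had a CCAAT box, a combination found in 8.61% of all genes. Among the G2/M members the CHR words lay partly within the 50 bases after the start, since counting the bases before the start alone left 6 of 14. Pcna, Rrm1, Rrm2, Ccnb1, Tk1 and E2f1 were among the members with none of the E2F or CHR words, which says only that these letters are not in this window. A match is a description of sequence; binding was not measured.

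**Figure D1:**
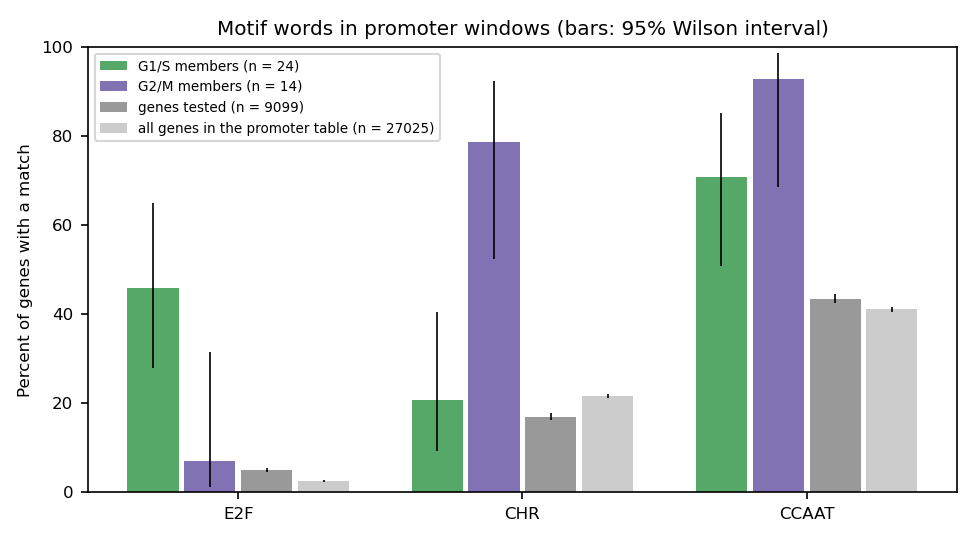
Share of genes (percent, vertical axis) whose 300-base promoter window holds an E2F, CHR or CCAAT word, for G1/S members, G2/M members, genes tested for expression and all genes in the RefSeq table; bars on the columns are 95% Wilson intervals. E2F words were found in 45.8% of G1/S members and CHR words in 78.6% of G2/M members.

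As deposited, the values of all 48 genes fell after LPS in both kinds of cell, though Mcm10 did not pass in either after the scaling by trimmed means described below. In control cells the median level left after 5 h was 19.0% of that without LPS, from 3.82% for Ccne2 to 78.8% for Mcm10. In GIV-depleted cells the median left was 14.7%, from 2.93% for E2f2 to 60.4% for Mcm10. Added together, the 48 genes made up 3661 and 3958 TPM in control cells without LPS and 924 TPM with it. In GIV-depleted cells the sum was 3950, 3957 and 3893 TPM without LPS and 766, 745 and 727 TPM with it. The G1/S genes were left at 23.1% and the G2/M genes at 25.7% of their summed level in control cells, and at 18.5% and 19.6% in depleted cells.

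On the log2(TPM + 1) scale used for testing, which understates the change of low genes, the members' median change was -2.24 in control cells and -2.55 in depleted cells. The median over all 13711 genes tested was -0.40 and -0.54. By limma with Benjamini-Hochberg adjustment over all genes tested, 48 of 48 members fell in control cells, where 44.1% of all genes tested fell and 14.8% rose, and 48 of 48 fell in depleted cells, where 59.7% of all genes fell and 15.8% rose. Scaling by trimmed means (TMM) gave 28.1% lower and 24.8% higher over all genes in control cells and 37.2% and 30% in depleted cells, since it moved the median of all genes to -0.06 and -0.09. Relative to the median of all genes, the members' median was -1.84 and -2.01 as deposited and -1.81 and -1.96 after that scaling. Libraries with and without LPS did not overlap for 48 of 48 members in either cell type, which was also so in the lower direction for 62.9% of all genes in control cells and 61.8% in depleted cells. Of the members, 40 in control cells and 44 in depleted cells were among the tenth of all tested genes with the most negative changes (-1.49 and -1.63 or lower). E2f2 passed the filter on low values through its libraries without LPS alone, which favours a fall.

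With the left-out library added, the spread among control libraries grew. Then 2 of 48 members fell in control cells and 27 of 48 in depleted cells, where 0.381% and 10.4% of all genes tested fell. The members' medians were -1.45 and -2.55, against 0.21 and -0.54 over all genes. The macrophage markers also moved: their sum was 17981 and 18348 TPM in control cells without LPS and 11436 TPM with it, and 16805 to 17350 TPM against 9348 to 9660 TPM in depleted cells. Of the 6, 2 fell and 3 rose in control cells and 3 fell and 2 rose in depleted cells, with Csf1r, the M-CSF receptor, at 21.7% and 10.6% of its level and Itgam, an integrin, at 213% and 244%. The part of that shift in the members' values was not tested. In bulk RNA, fewer cycling cells and less of these RNAs per cell cannot be told apart.

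**Figure D2:**
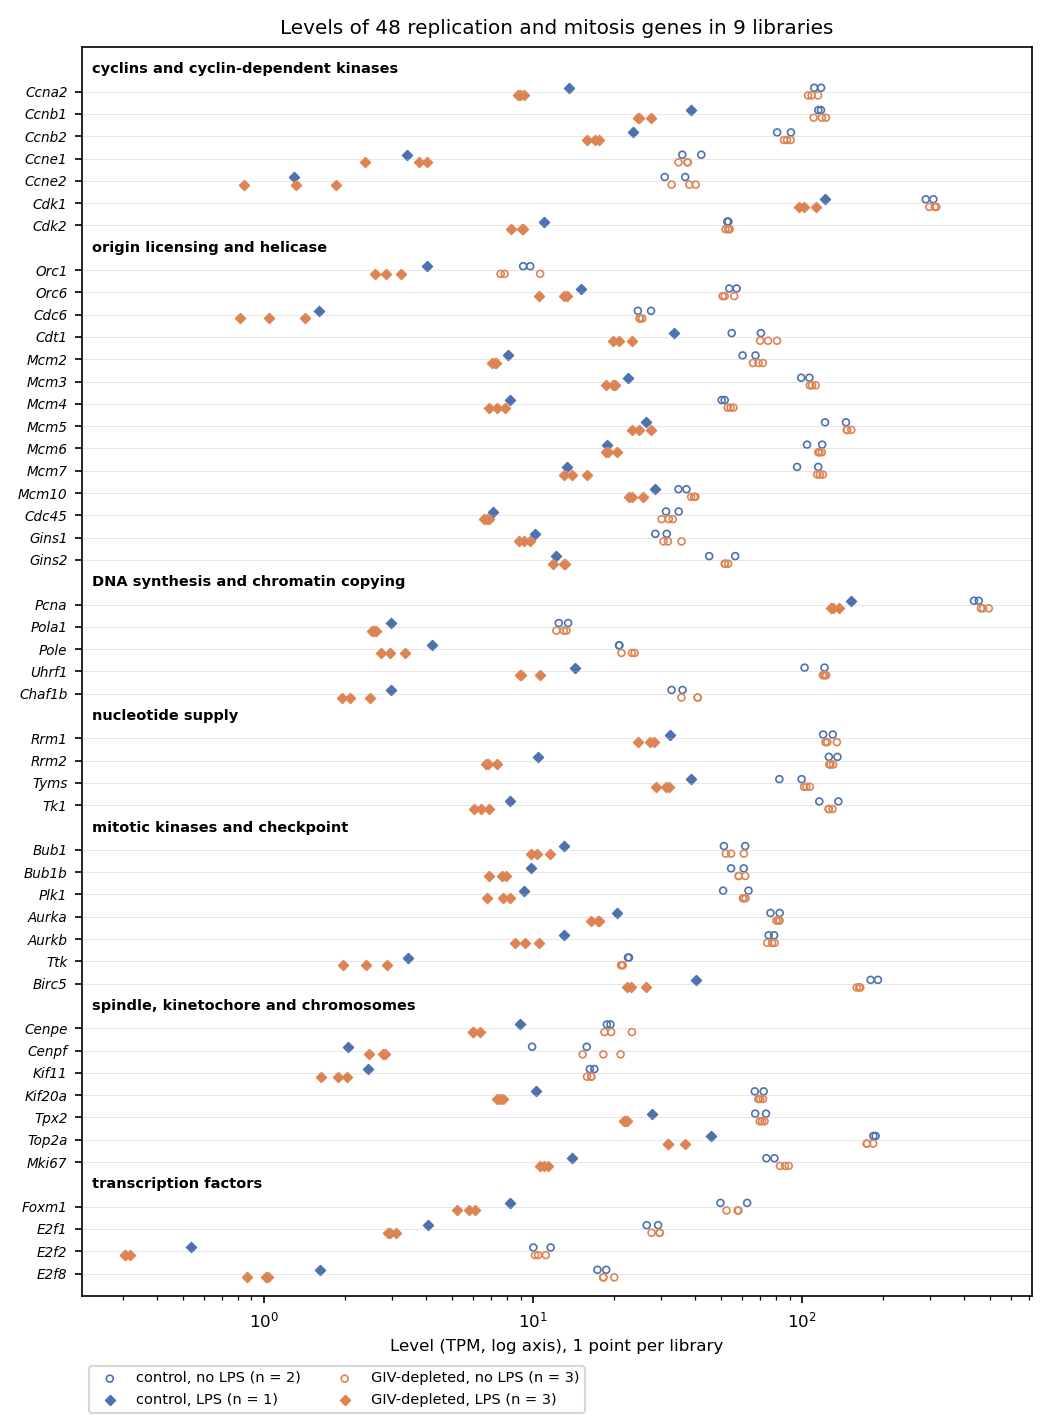
Level of each of the 48 genes (TPM, log axis) in each of the 9 libraries used, by role; open circles are libraries without LPS, filled diamonds with LPS, blue control and orange GIV-depleted cells. In every row the diamonds lie left of the circles, while blue and orange circles lie close together.

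Among cyclins and cyclin-dependent kinases (7 genes, 7 of 7 lower in each cell type), Cdk1 was the most abundant. Cdk1 stood at 288 and 308 TPM in control cells and 316, 311 and 297 TPM in depleted cells without LPS, and at 121 TPM and 113, 102 and 97.1 TPM with LPS. It fell by 1.29 ± 0.10 (log2, SE; adjusted p = 2.42e-05) in control cells and by 1.56 ± 0.07 in depleted cells, one of the smaller falls. Ccnb1 (cyclin B1, the main mitotic partner of CDK1) went from 115 and 118 TPM to 38.8 TPM in control cells and from 119, 123 and 110.5 TPM to 24.8, 27.4 and 24.6 TPM in depleted cells. Ccnb2 went from 80.8 and 91.0 TPM to 23.6 TPM and from 88.0, 90.8 and 85.8 TPM to 15.9, 17.1 and 17.7 TPM. For both B cyclins the control library with LPS lay above all 3 depleted libraries with LPS, as for 48.7% of all genes tested. The S-phase cyclins fell more: Ccne2 (cyclin E2) was left at 3.82% in control cells and 3.62% in depleted cells, and Ccne1 at 8.69% and 9.28%. Ccna2 (cyclin A2), which serves S phase and mitosis, was left at 11.9% and 8.22%, and Cdk2 at 20.8% and 16.7%.

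The 14 origin licensing and helicase genes all fell in both cell types. Mcm5, a subunit of the MCM ring, stood at 122 and 146 TPM in control cells without LPS and 26.3 TPM with it, and at 147, 153 and 147 TPM against 24.7, 27.6 and 23.4 TPM in depleted cells. For Mcm6 the values were 104 and 119 TPM against 18.9 TPM in control cells, and 116, 118 and 115 TPM against 19.1, 20.5 and 18.8 TPM in depleted cells. Those of Mcm3 were 99.3 and 107 TPM against 22.5 TPM, and 109, 112 and 107 TPM against 18.6, 20.3 and 19.9 TPM. For Mcm5 and Mcm6 the control library with LPS lay within the range of the depleted ones. For Mcm3 it lay above that range, as for 48.7% of all genes tested. Their log2 changes were close to each other, at -2.30 ± 0.13, -2.50 ± 0.10 and -2.14 ± 0.08 (SE) in control cells and -2.52 ± 0.08, -2.52 ± 0.06 and -2.42 ± 0.06 in depleted cells. Mcm2, Mcm4 and Mcm7, which complete the ring, changed by -2.83 ± 0.09, -2.49 ± 0.09 and -2.89 ± 0.14 in control cells. Cdc6, one of the loaders of the ring, was left at 6.14% in control cells and 4.35% in depleted cells, the lowest of this role. Cdt1, its partner in loading, was left at 53.3% in control and 28.4% in depleted cells, and the origin recognition subunits Orc1 and Orc6 at 42.5% and 27.3% in control cells. The activators of the ring, Cdc45, Gins1 and Gins2, were left at 21.4%, 33.9% and 23.9% in control cells.

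Mcm10, which helps to start unwinding at origins, was the member least lowered. It stood at 34.7 and 37.2 TPM in control cells without LPS and 28.4 TPM with it, and at 39.7, 40.2 and 38.7 TPM against 22.7, 23.3 and 25.7 TPM in depleted cells. It fell by 0.33 ± 0.10 in control cells (adjusted p = 0.0183) and by 0.71 ± 0.06 in depleted cells (adjusted p = 2.20e-05). This fall was near that of the median gene, and after TMM scaling its change in control cells was 0.05 (adjusted p = 0.707) and in depleted cells -0.17 (adjusted p = 0.0635). Without control replicate 3 without LPS its change in control cells was -0.28 ± 0.10 and did not pass. Its change there also did not pass after quantile normalization (-0.07 ± 0.10, adjusted p = 0.562). The same held with the set number as a replicate block (-0.32 ± 0.12, adjusted p = 0.0693) and with only the groups compared (-0.33 ± 0.19). Orc1 did not pass in control cells after quantile normalization (log2 -0.50, adjusted p = 0.0905).

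DNA synthesis and chromatin copying was represented by 5 genes, all lower in both cell types. Pcna, the sliding clamp, was the most abundant of all 48 members. Its level was 436 and 454 TPM in control cells without LPS, 152 TPM with it, 495, 471 and 462 TPM in depleted cells without LPS and 137, 131 and 128 TPM with it. Uhrf1, which guides the copying of DNA methylation, went from 102 and 121 TPM to 14.3 TPM in control cells and from 119.6, 123 and 121 TPM to 9.03, 10.6 and 8.99 TPM in depleted cells. Chaf1b, a subunit of the chromatin assembly factor that packs new DNA, went from 32.8 and 36.0 TPM to 2.97 TPM and from 35.6, 41.0 and 41.0 TPM to 2.1, 2.48 and 1.96 TPM. Pcna was left at 34.2% in control cells, Uhrf1 at 12.8% and Chaf1b at 8.63%. The 95% interval of the clamp's log2 change, -1.72 to -1.36, does not meet those of the 2 chromatin factors, -3.18 to -2.58 and -3.48 to -2.84. The polymerase subunits Pola1 (priming) and Pole (leading strand) were left at 22.9% and 20.2% in control cells and at 19.9% and 13.2% in depleted cells.

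In nucleotide supply (4 genes, all lower), the 2 subunits of ribonucleotide reductase differed in the size of their fall. Rrm1, the large subunit, went from 119.8 and 130.1 TPM to 32.4 TPM in control cells and from 124, 122 and 135 TPM to 28.3, 24.6 and 27.3 TPM in depleted cells. Rrm2, the S-phase small subunit, went from 126 and 135 TPM to 10.4 TPM and from 131, 126 and 128 TPM to 7.37, 6.81 and 6.67 TPM. From similar levels without LPS, Rrm2 thus ended below Rrm1 in all 4 libraries with LPS; the 95% intervals of the log2 changes in control cells, -3.73 to -3.32 for Rrm2 and -2.16 to -1.67 for Rrm1, do not meet. Tyms (thymidylate synthase) went from 82.4 and 99.7 TPM to 38.7 TPM in control cells and from 107, 102 and 104 TPM to 28.7, 32.1 and 31.3 TPM in depleted cells. Tk1 (thymidine kinase 1, the salvage route) fell by 3.78 ± 0.11 and 4.11 ± 0.08, to 6.52% and 5.07% of its level.

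All 7 mitotic kinase and checkpoint genes fell, within a narrow band of log2 -1.90 to -2.49 in control cells and -2.19 to -2.90 in depleted cells. Birc5 (survivin, of the chromosomal passenger complex) stood at 179.9 and 192 TPM in control cells without LPS and 40.4 TPM with it, and at 163, 165 and 159.7 TPM against 26.3, 22.4 and 23.2 TPM in depleted cells. Aurka (Aurora A, at spindle poles) stood at 76.4 and 82.6 TPM against 20.5 TPM, and 81.7, 82.5 and 80.3 TPM against 17.5, 17.4 and 16.5 TPM. Values of Aurkb (Aurora B, the kinase of the passenger complex) were 75.2 and 78.7 TPM against 13.0 TPM, and 74.3, 79.2 and 77.5 TPM against 10.5, 9.34 and 8.56 TPM. The lone control library with LPS lay above all 3 depleted libraries with LPS for these 3 genes, as for 48.7% of all genes tested. The kinases Plk1 and Ttk and the checkpoint proteins Bub1 and Bub1b were left at 16.3%, 15.2%, 23.1% and 17.0% in control cells.

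The 7 spindle, kinetochore and chromosome genes fell in both cell types. Top2a stood at 188 and 184 TPM in control cells without LPS and 46.1 TPM with it, and at 184, 175 and 174 TPM against 36.7, 31.8 and 31.8 TPM in depleted cells. Tpx2, which activates Aurora A on the spindle, stood at 67.0 and 73.5 TPM against 27.7 TPM, and 71.0, 69.7 and 72.6 TPM against 22.3, 22.0 and 21.7 TPM. The proliferation marker Mki67 stood at 79.0 and 73.8 TPM against 14.0 TPM, and 86.5, 82.8 and 89.2 TPM against 11.4, 10.6 and 11.0 TPM. Kinesins differed: Kif20a, needed for cytokinesis, was left at 14.8% and Kif11, which separates spindle poles, at 14.7% in control cells, while Cenpe, the kinetochore motor, was left at 46.8%. Cenpf, a kinetochore protein, was left at 16.0%, but its 2 control libraries without LPS were apart, at 15.9 and 9.94 TPM, the widest relative spread of any member in that group (coefficient of variation 32.5%, median over members 6.19%).

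The 4 transcription factors of this programme also fell in both cell types. Foxm1, the activator of mitotic genes, went from 49.8 and 62.6 TPM to 8.24 TPM in control cells and from 52.5, 58.0 and 57.6 TPM to 6.09, 5.24 and 5.79 TPM in depleted cells. E2f1, an activator of S-phase genes, went from 26.5 and 29.2 TPM to 4.07 TPM and from 27.6, 29.6 and 29.6 TPM to 3.11, 2.95 and 2.9 TPM. E2f8, a late-acting repressor of E2F targets, went from 17.4 and 18.7 TPM to 1.61 TPM and from 18.3, 20.1 and 18.3 TPM to 1.04, 0.867 and 1.02 TPM. E2f2, another activator, went from 10.0 and 11.6 TPM to 0.536 TPM and from 10.5, 11.2 and 10.2 TPM to 0.306, 0.319 and 0.306 TPM, under 1 TPM in every library with LPS. Activators and the repressor E2f8 thus moved in the same direction.

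**Figure D3:**
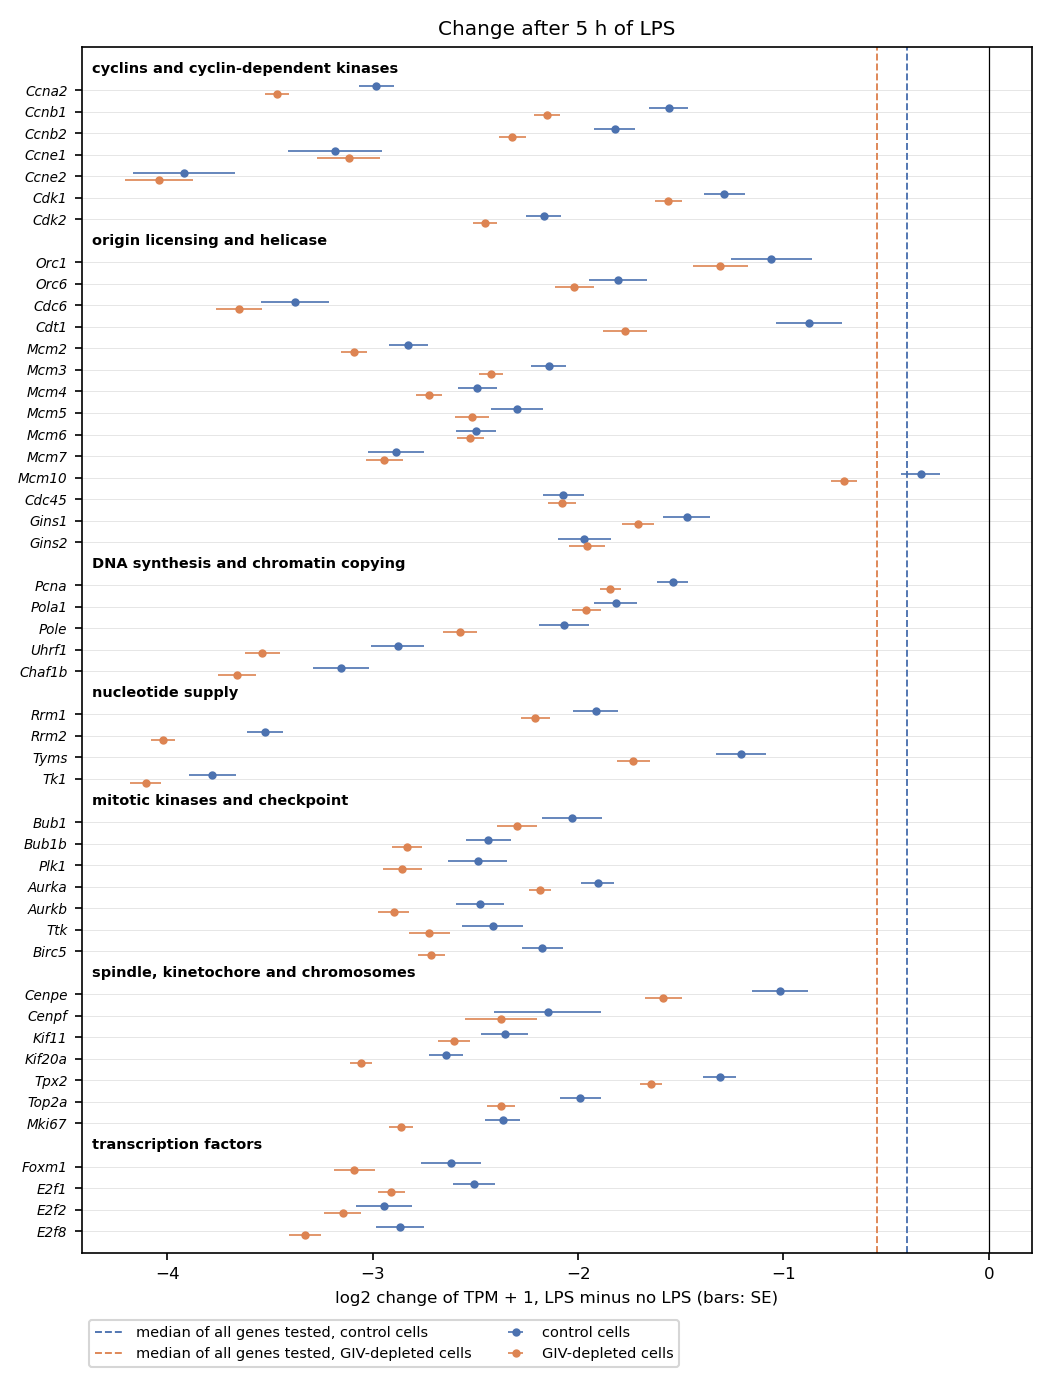
Log2 change of TPM + 1 after 5 h of LPS for each of the 48 genes (horizontal axis; bars are SE), in control cells (blue) and GIV-depleted cells (orange); dashed lines are the medians of all genes tested, -0.40 and -0.54. All points lie left of 0, and Mcm10 is the member nearest to the dashed lines.

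Most other genes of the pathway fell too. Of all genes tested, 44.1% fell and 14.8% rose in control cells, and 59.7% fell and 15.8% rose in depleted cells. Of 35 other replication genes tested, 32 fell and none rose in control cells, and 34 fell in depleted cells. Wdhd1, a replisome scaffold, was left at 3.79% and 3.69%, and Gmnn (geminin, the inhibitor of CDT1) at 8.35% and 7.62%, in control and depleted cells. All 22 other motors and cytokinesis genes and all 11 centromere genes fell in both cell types; Kif22, a chromosome arm motor, was left at 16.7% and 10.4%, Anln (anillin, of the cleavage furrow) at 11.4% and 8.15%, Cenpk at 11.9% and 8.88%, and Cenpn at 13.0% and 14.0%. Cohesin and condensin genes fell in 14 of 16 and 15 of 16 cases. Ncapd2, a condensin subunit, was left at 15.5% and 7.73% and Esco2, which acetylates cohesin in S phase, at 5.57% and 3.91%. Of 23 replication checkpoint and fork repair genes, 20 fell and 1 rose in control cells, and 21 fell and 1 rose in depleted cells. Clspn (claspin) was left at 7.16% and 6.09% and Wee1, which inhibits CDK1, at 5.14% and 5.33%. The gene that rose was Brca2, by 0.47 ± 0.13 and 0.57 ± 0.09 (log2, SE). Its rise in control cells did not pass with only the groups compared, and without control replicate 1 without LPS it was 0.38 ± 0.14. With the left-out library added, Brca2 did not pass in either cell type. Wdhd1, Esco2 and Wee1 passed the filter on low values through their libraries without LPS alone, which favours a fall.

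Spindle checkpoint and anaphase genes fell in 15 of 17 cases in both cell types, and Fbxo5 (EMI1, an inhibitor of the anaphase-promoting complex) was left at 7.09% and 5.52% and Espl1 (separase) at 16.3% and 9.39%. The other 2 were Pttg1 (securin), at 0.14 ± 0.10 and 0.24 ± 0.07, and Zwint, at 0.19 ± 0.10 and 0.34 ± 0.07, which passed the test as higher in depleted cells alone (adjusted p = 0.0115 and 0.00178), and after TMM scaling in control cells too. The difference between cell types did not pass for either (adjusted p = 0.705 and 0.529). Of 12 other nucleotide synthesis genes, 8 fell and 1 rose in control cells, and 10 fell and 2 rose in depleted cells. Over all genes tested, 14.8% rose in control cells and 15.8% in depleted cells. Dut (dUTPase) was left at 16.4% and 10.1%. Samhd1, which breaks down deoxynucleotides, rose by 2.33 ± 0.08 and 2.38 ± 0.05, from 106 to 537 TPM in control cells and from 106 to 557 TPM in depleted cells, the opposite direction to Rrm1, Rrm2, Tyms and Tk1. The salvage kinase Dck was the other gene that rose in depleted cells (0.65 ± 0.11).

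Of 15 tested RB, E2F and DREAM regulators (16 listed), 12 fell in control and 15 in depleted cells, among them Mybl2, left at 15.7% and 8.49%, and Rbl2 (p130), left at 13.0% and 9.10%. The list of cell cycle entry genes and CDK inhibitors divided: of 12 tested (14 listed), 8 fell and 3 rose in control cells, and 7 fell and 3 rose in depleted cells. In depleted cells the share that fell was near that of all genes (59.7%). Of all genes, 14.8% rose in control cells and 15.8% in depleted cells. Skp2, which targets CDK inhibitors for destruction, was left at 18.0% and 18.3% and Cdkn2c (p18) at 7.20% and 5.74%. The 3 that rose, named after their values were seen, were Cdkn1a, Ccnd2 and Ccnd3 in both cell types. In control cells the rise of Ccnd3 (0.41 ± 0.11) did not pass with the set number as a replicate block (0.29 ± 0.13). Nor did it pass with only the groups compared, and without control replicate 1 without LPS it was 0.32 ± 0.12. All control libraries of Ccnd2 lie under 1 TPM, so its rise there was tested only because depleted libraries passed the filter on low values. Cdkn1a (p21, which inhibits CDK2 and binds PCNA) stood at 145 and 179.7 TPM in control cells without LPS and 497 TPM with it, and at 177, 156 and 160.4 TPM against 451, 490.0 and 407 TPM in depleted cells. Its rise was 1.62 ± 0.15 (adjusted p = 6.71e-05) and 1.44 ± 0.10 (adjusted p = 5.44e-06). With the left-out library added, its rise no longer passed (adjusted p = 0.432 and 0.321), nor did that of Samhd1 (adjusted p = 0.224 and 0.0708). In control cells 1 gene of the 9 lists then fell, a member of the RB, E2F and DREAM list, and none rose (0.381% and 3.07% of all genes). In depleted cells 17 of 22 motors and cytokinesis genes, 14 of 35 replication genes, 14 of 23 checkpoint and fork repair genes, 7 of 16 cohesin and condensin genes, 6 of 17 spindle checkpoint genes, 6 of 15 RB, E2F and DREAM regulators, 3 of 11 centromere genes, 2 of 12 nucleotide synthesis genes and 2 of 12 cell cycle entry genes fell (10.4% of all genes), and Ccnd2 alone rose.

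**Figure D4:**
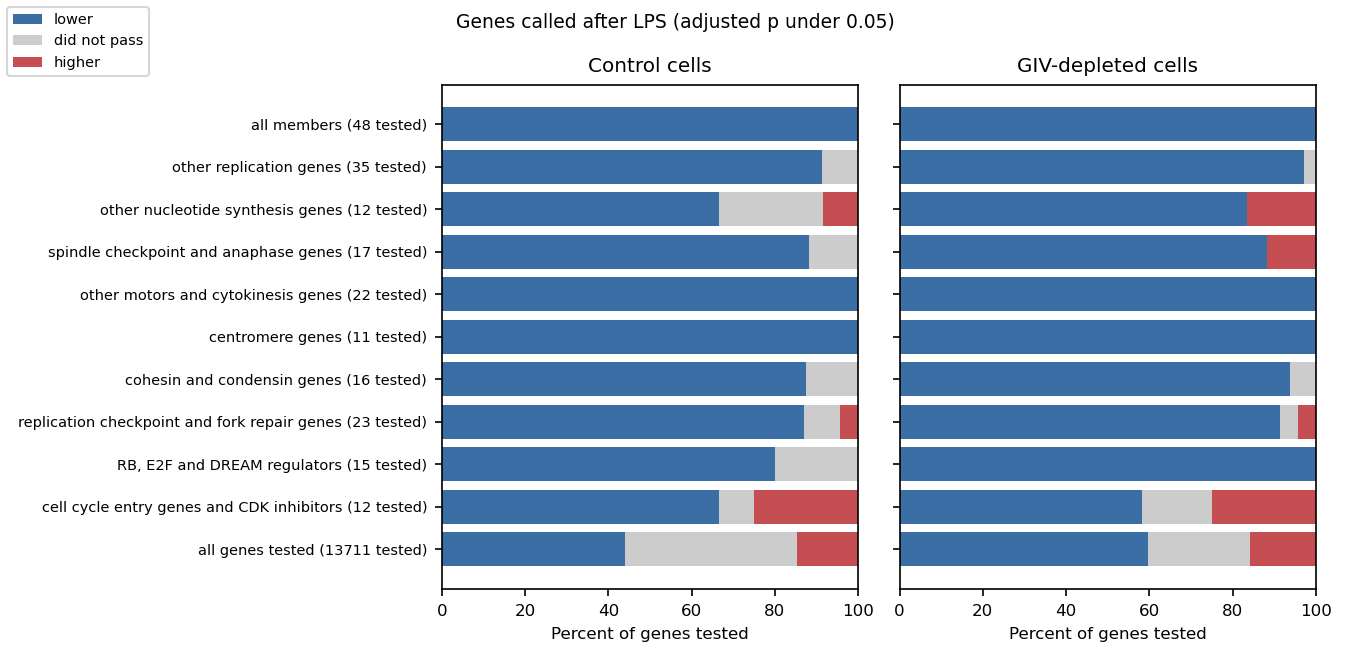
Percent of tested genes that fell (blue), did not pass (grey) or rose (red) after LPS at an adjusted p under 0.05, for the 48 members, 9 lists of related genes and all genes tested, in control and GIV-depleted cells. The list of cell cycle entry genes and CDK inhibitors has the largest red share of the 9 lists in both panels.

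Without LPS, the members' levels in GIV-depleted cells were near those of control cells. The level in depleted cells was 87.5% (Birc5) to 142% (Cenpf) of the control mean, with a median of 103%. By limma, 0 of 48 members fell and 0 rose, where 0.729% and 0.489% of all genes tested did. At an unadjusted p under 0.05, 1 member was lower (Birc5) and 2 were higher (Cenpf and Mki67), against 5.67% and 6.57% of all genes. The median log2 difference was 0.04, and 0.02 over all genes. The 95% intervals ran from -0.48 at the lowest to 0.95 at the highest and lay within a 2-fold difference in either direction for 48 of 48 members, as for 87.4% of all genes. This bounds the difference and does not show that the levels were equal. Libraries of the 2 cell types did not overlap for 3 members that were lower in depleted cells (Ttk, Birc5 and Top2a; 12.7% of all genes were) and for 8 that were higher (Mcm3, Mcm4, Mcm5, Mcm10, Pcna, Pole, Tyms and Mki67; 15.6% of all genes). With the left-out library added, 0 of 48 passed in either direction, as did 0% of all genes. The members' median difference was then 0.99, against 0.64 over all genes.

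With LPS, the control library lay above all 3 depleted libraries for 41 of 48 members, which was so for 48.7% of all genes tested, and below them for Cenpf. The members' median difference was -0.30, against -0.12 over all genes. By limma, 8 of 48 members were lower in depleted cells and 0 were higher, where 4.38% of all genes tested were lower and 0.89% higher. They were Birc5 (-0.73 ± 0.10, adjusted p = 0.00928), Ccnb1 (-0.58 ± 0.09, adjusted p = 0.015), Ccna2 (-0.55 ± 0.08, adjusted p = 0.012), Uhrf1 (-0.54 ± 0.12, adjusted p = 0.049), Rrm2 (-0.53 ± 0.08, adjusted p = 0.0153), Ccnb2 (-0.46 ± 0.09, adjusted p = 0.0363), Top2a (-0.45 ± 0.09, adjusted p = 0.0374) and Kif20a (-0.40 ± 0.08, adjusted p = 0.0303). Ccna2 stood at 13.6 TPM in the control library with LPS and at 8.78, 8.98 and 9.23 TPM in depleted cells with LPS. The same comparison for Kif20a gave 10.3 TPM against 7.76, 7.35 and 7.53 TPM. Of these 8, 6 belong to the 19 G2/M genes and 2 (Uhrf1 and Rrm2) to the 29 G1/S genes; the median differences of these groups were -0.39 and -0.24. None of the 14 licensing and helicase genes passed, and Mcm6, Mcm7, Gins2, Ccne2 and Cenpf had differences of 0 or more (0.04 ± 0.09, 0.09 ± 0.13, 0.06 ± 0.12, 0.01 ± 0.23 and 0.27 ± 0.25).

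These 8 calls rest on 1 control library. Leaving out any 1 of the other libraries gave between 4 and 11 calls: 11 without control replicate 1 or 3 without LPS, 5, 4 and 4 without depleted replicate 1, 2 or 3 without LPS, and 7, 5 and 4 without depleted replicate 1, 2 or 3 with LPS. Without 1 of the depleted libraries, 1.81% to 3.41% of all genes were lower. With the left-out library added the count of members was 0 (0% of all genes), and with the set number as a replicate block 0 (0.445%). After TMM scaling it was 4 (2.77% of all genes), after quantile normalization 2 (2.22%), and 0 (0.283%) when only the groups with LPS were fitted. Birc5 and Rrm2 passed in 16 of 19 alternative settings, Ccna2 and Ccnb1 in 15, Kif20a in 8, Uhrf1 in 7, and Ccnb2 and Top2a in 6, with the same sign in all of them. On the GRCm38 build, Birc5 lies at chr11:117849251-117855743 (plus strand), Ccna2 at chr3:36564865-36572150 (minus), Ccnb1 at chr13:100778650-100786570 (minus) and Rrm2 at chr12:24708241-24714146 (plus), per the GENCODE M21 annotation.

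**Figure D5:**
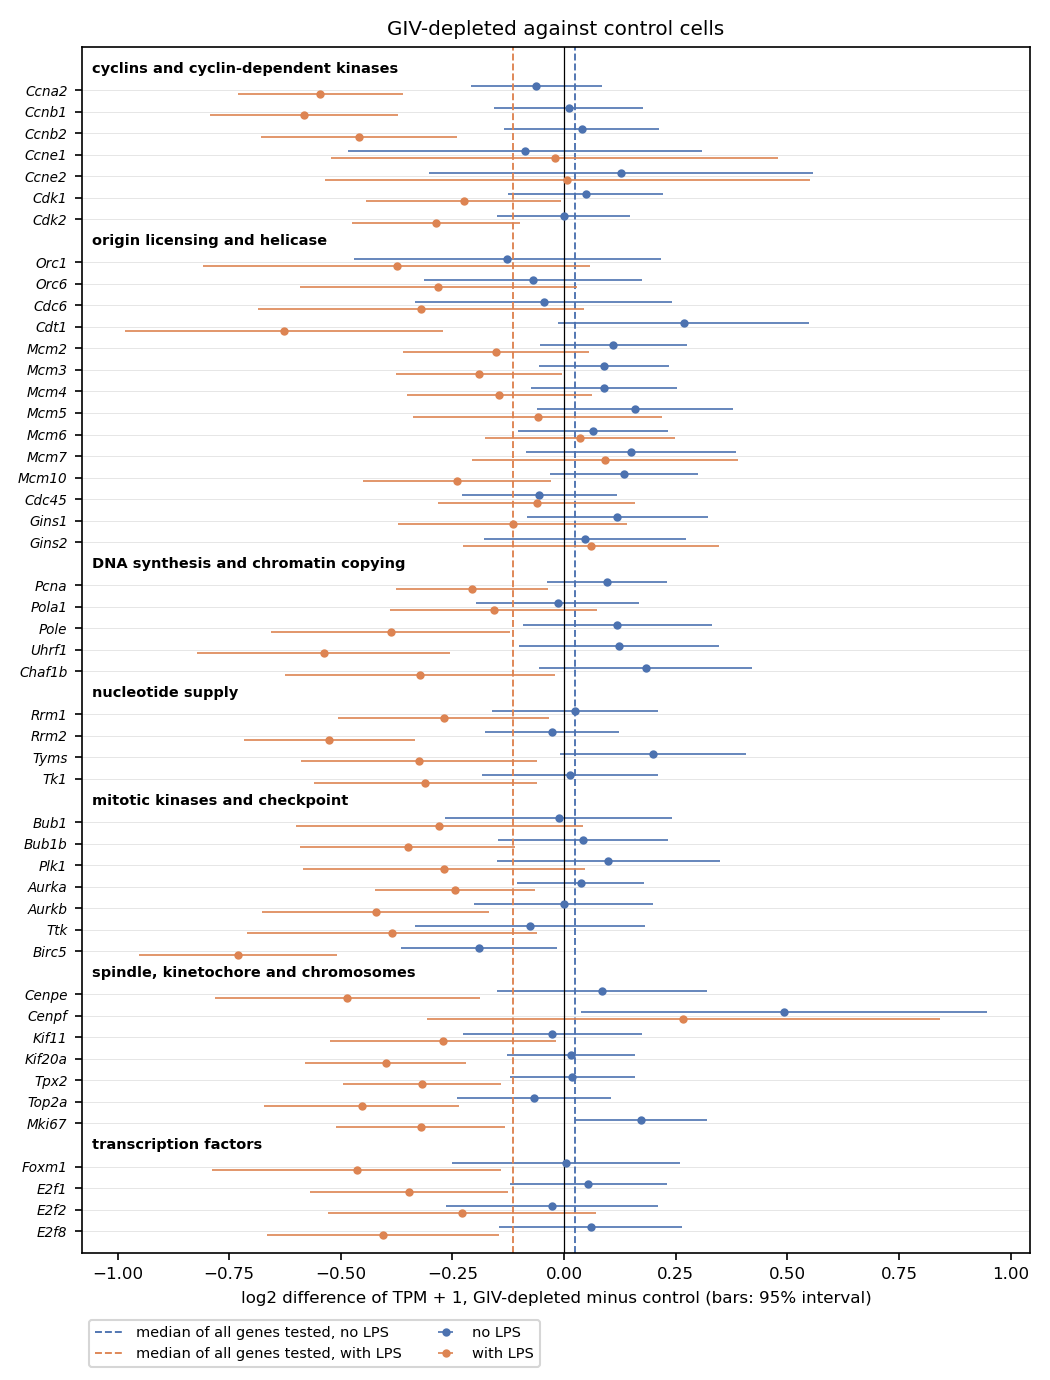
Log2 difference of TPM + 1 between GIV-depleted and control cells for each of the 48 genes (horizontal axis; bars are 95% intervals), without LPS (blue) and with LPS (orange); dashed lines are the medians of all genes tested, 0.02 and -0.12. Most intervals without LPS include 0, and most points with LPS lie left of their dashed line, with the 1 control library behind each of them.

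The difference between the LPS responses of the cell types uses the same lone control library and the same libraries as the comparisons above, so its values are not separate evidence. Its median over the members was -0.31, against -0.15 over all genes, and 46 of 48 members were below 0, as were 70.1% of all genes. By limma 0 of 48 members passed in either direction, where 0.131% of all genes were lower and 0.0948% higher. At an unadjusted p under 0.05, 26 members were lower and 0 higher, against 14.5% and 2.86% of all genes. Cdt1 had the most negative value, -0.90 ± 0.19 (adjusted p = 0.0984): it stood at 54.8 and 70.4 TPM without and 33.4 TPM with LPS in control cells, and at 69.9, 80.8 and 74.8 TPM and 19.8, 23.3 and 20.8 TPM in depleted cells. Uhrf1 (-0.66 ± 0.15, adjusted p = 0.111) and Ccnb1 (-0.59 ± 0.11, adjusted p = 0.0832) came next. The 95% intervals ran from -1.35 to 0.71 and lay within a 2-fold difference for 46 of 48 members, as for 73.4% of all genes. With the left-out library added, 0 members and 0% of all genes passed, and the members' median was -1.21, against -0.80 over all genes.

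Of the related lists, the motors and cytokinesis list had 5 of 22 genes lower in depleted cells with LPS, where 4.38% of all genes were, among them Prc1, which bundles the central spindle (-0.98 ± 0.09, adjusted p = 0.003), Kif22 (-0.51 ± 0.09) and Anln (-0.49 ± 0.10). The 5 calls became 1 with the set number as a replicate block, 0 with only the groups compared and 0 with the left-out library added, and the 600 genes lower over the whole table became 61, 34 and 0. Prc1 was also lower without LPS (-0.41 ± 0.07, adjusted p = 0.0471), a call lost with the left-out library added, with the block, and without any 1 of the other libraries except the control library with LPS. Also lower in depleted cells with LPS were 3 of 17 spindle checkpoint and anaphase genes and 2 of 23 replication checkpoint and fork repair genes. The same held for 1 of 16 cohesin and condensin genes and 1 of 12 nucleotide synthesis genes. These calls too rest on the lone control library with LPS. The 35 other replication genes, the 11 centromere genes and the 15 tested RB, E2F and DREAM regulators had 0 calls in either direction in that comparison. Of the cell cycle entry list, Cdk4 was lower with LPS (-0.58 ± 0.08, adjusted p = 0.0119) and Ccnd2 higher; the call of Cdk4 was lost with the block (adjusted p = 0.0756), with only the groups compared (0.0759) and with the left-out library added (1.0). Ccnd2 (cyclin D2, which with CDK4 and CDK6 starts the cycle) stood at 0.116 and 0.138 TPM in control cells without LPS and 0.928 TPM with it, and at 1.06, 1.30 and 1.51 TPM against 11.8, 11.1 and 11.1 TPM in depleted cells. It was higher in depleted cells by 1.02 ± 0.12 without LPS (adjusted p = 0.0108) and by 2.68 ± 0.16 with LPS (adjusted p = 0.000682), opposite in direction to the 8 members that were lower. All its control libraries lie under 1 TPM, so it passed the filter on low values through the depleted libraries alone, which favours a difference. Its call without LPS was lost without control replicate 1 or 3 without LPS (adjusted p = 0.0603 and 0.0607), with the block (0.0731), with only the groups compared (0.214) and with the left-out library added (0.472), and its call with LPS was lost with the left-out library added (0.116).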

How the data were processed

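The labels list 11 samples of stranded total RNA, read as pairs of 100 bases. Control cells with LPS replicate 3 is in the labels but has no values among the 10 libraries, so it was not analysed here. The authors deposited log2(TPM + 1) per gene for 10 libraries, made with kallisto 0.45.0 on GRCm38 per the submitters' processing notes. The annotation release and the summing of transcripts are not given in the sources used here. TPM keeps no read total, so the depth behind each value and its counting precision are unknown. No 2 of the 45 library pairs were identical.

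Members and gene lists were chosen with earlier results of these data known. From the deposited log2 values, 1 limma model (3.58.1, R 4.3.3) of the 4 groups was fitted to 9 libraries, with a mean-variance trend and 5 residual degrees of freedom, over the 13711 genes that reached 1 on the log2(TPM + 1) scale in 2 or more libraries. P-values were adjusted by Benjamini-Hochberg per comparison with a threshold of 0.05. The model was tested on simulated data. Levels are TPM (2 to the power of the log2 value, minus the pseudocount of 1). The library left out was so treated because of its composition. Values in every library are given for at most 3 members a role, those of highest mean level, besides members a result turns on. From each other list the 2 genes of at least log2 2 with the largest change after LPS in depleted cells are named; Cdkn1a, Ccnd2, Ccnd3, Brca2, Pttg1, Zwint, Dck, Prc1 and Cdk4 were named after their values were seen. Alternatives covered filters, pseudocount, scaling, variance models, the set numbers as a block and leaving out each library. Same-numbered libraries of depleted cells without and with LPS deviated together with correlations of 0.062 to 0.097. Those of different numbers had correlations of -0.071 to -0.0042. All were small, so the main model did not take the numbers to pair samples, but pairing was not excluded. Promoter words were matched in RefSeq windows (GRCm38.p6), with 95% Wilson intervals that cover counting error only. Kif11 has 2 identical rows, and how the authors' counting divided its reads is unknown.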

Additional observations from a re-analysis of the deposited data

Results flagged for a closer look

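The LPS responses of control and GIV-depleted cells were compared by the test of the difference itself (limma, Benjamini-Hochberg over 13711 genes). On the log2(TPM + 1) scale the test was passed by Ccnd2 of the related lists, by Csf1r of the macrophage markers and by none of the 48 members. Over all genes tested, 0.131% were lower and 0.0948% higher. Ccnd2 had the larger rise on the log2(TPM + 1) scale in depleted cells, with a difference of responses of 1.66 ± 0.20 (adjusted p = 0.0352). It stood at 0.116 and 0.138 TPM in control cells without LPS and 0.928 TPM with it. In depleted cells it stood at 1.06, 1.30 and 1.51 TPM against 11.8, 11.1 and 11.1 TPM. That scale understates a rise from such low control values, so the 1.66 does not measure a difference in fold change. With a pseudocount of 0.1 the difference was 0.87 (adjusted p = 0.240). All control libraries of Ccnd2 lie under 1 TPM, so it passed the filter on low values through the depleted libraries alone, which favours a difference. Csf1r, the receptor of the growth factor M-CSF, fell more in depleted cells, with a difference of -1.02 ± 0.12 (adjusted p = 0.0355). It stood at 459 and 541 TPM in control cells without LPS and 109 TPM with it, and at 396, 414 and 408 TPM against 42.8, 44.6 and 41.8 TPM in depleted cells. Both values rest on the lone control library with LPS. Without any 1 of the other libraries the adjusted p of Ccnd2 was between 0.0560 and 0.132, and that of Csf1r between 0.0291 and 0.132. With the left-out library added neither passed (Ccnd2 1.70 and Csf1r -1.96, adjusted p = 0.715 for each), nor with the set number as a replicate block (adjusted p = 0.230 and 0.221). Ccnd2 was also lost under a stricter filter of log2 3 in 2 libraries (adjusted p = 0.0561) and Csf1r without the variance trend (adjusted p = 0.0577).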

How the results depend on the processing

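After LPS, the count of members lower stayed between 46 and 48 of 48 in both cell types under every alternative but 1. With control replicate 2 without LPS added it was 2 in control cells and 27 in depleted cells, where 0.381% and 10.4% of all genes fell. In control cells Cdk1 was then at 0.11, Mcm10 at 0.44, Pcna at 0.087 and Tyms at 0.020 (log2 change), with adjusted p from 0.901 to 1, while for depletion without LPS Itgam was at 0.25 and Prc1 at 0.22. After TMM scaling Mcm10 was at 0.053 in control cells. For depletion with LPS the 8 calls became 0 with that library added, 0 with the set number as a replicate block, 0 with only the groups compared, 4 with TMM scaling, 2 with quantile normalization, 4 without a variance trend, and 4 to 11 when 1 library was left out. The other filters, pseudocount and rescaling gave 6 to 10, where 2.67% to 7.55% of all genes were lower. Of all genes, 0% were lower with the left-out library added, 0.445% with the block and 0.283% with only the groups compared. The share was 2.77% with TMM scaling, 2.22% with quantile normalization and 3.02% without a variance trend. The replicate block left 47 members lower in control cells and 48 in depleted cells and 0 calls for depletion without LPS and for the difference of the responses. Both of these kept 0 members called under every alternative run. Without the lone control library with LPS no comparison that uses it has a value, and the difference was not run on only the groups compared. When the bases after the start were left out, the shares over all members with a promoter stayed within their 95% intervals, but G2/M members with a CHR word went from 78.6% (52.4% to 92.4%) to 42.9%.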

Other observations

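The library labelled control without LPS replicate 2, which entered no main comparison, held the 48 members at a summed 442 TPM. Relative to the mean of the other control libraries without LPS, members stood at 3.18% (Pcna) to 47.4% (E2f2), with a median of 12.9%. Cdkn1a, which rose after LPS, stood there at 17.9 TPM.

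Replicates of the members were close in the libraries used. The median coefficient of variation over the 48 genes was 3.24% in depleted cells without LPS, from 0.735% for Ttk to 19.5% for Orc1. In depleted cells with LPS it was 7.05%, from 1.26% for Tpx2 to 37.7% for Ccne2.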
